A study of Homo sapiens with 10 samples.

Results

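The genes of the NSL complex were followed in 3 lists of chromatin immunoprecipitation (ChIP-seq) summits, together with HCFC1 and OGT, whose products belong to the same assembly. The set holds 8 of 20037 protein-coding genes (autosomes and both sex chromosomes). It was chosen by membership of the complex, with earlier results of these data known: KAT8, KANSL1, KANSL2, KANSL3, MCRS1, PHF20, HCFC1 and OGT. The gene of WDR5 itself is not in the set and stands in a related list below. All material came from HEK293T, a human embryonic kidney line expressing SV40 large T antigen, and chromatin was released from nuclei with micrococcal nuclease. WDR5 was precipitated with the same antibody from wild-type cells (WT) and cells knocked out for the microprotein EMBOW (KO). Another ChIP used anti-FLAG beads on HEK293T cells that stably expressed tagged EMBOW (labelled EMBOW-FH), and its summit list is called EMBOW-F here. Each of these groups is 1 library, so differences between them could not be checked against replicates and no test was run. The labels do not say whether the knockout is 1 clone. The other 7 of the 10 libraries (H3K4me3 ChIP and inputs) were not analysed here. The summit lists hold no expression values, so they check neither the HEK293T label nor the loss of EMBOW.

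WDR5 is a WD40-repeat protein that serves as a shared subunit of several chromatin complexes. It is best known from the COMPASS family, which methylates histone H3. In the NSL (non-specific lethal) complex it is held by KANSL1 and KANSL2, and the complex carries KAT8 (also called MOF), an acetyltransferase for histone H4, to the promoters of widely expressed genes. HCFC1 is a transcription co-regulator that OGT, the enzyme that attaches O-linked N-acetylglucosamine (O-GlcNAc), both modifies and cleaves. The values below describe where WDR5 was called at the genes that encode this complex. They do not measure the complex itself.

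In KO, all 8 genes had a WDR5 summit within 1 kb of an annotated gene end, here called a gene-end summit, against 53.4% of all protein-coding genes. In WT, 6 of the 8 genes had one, against 50.0% of all genes. The genes marked in both lists were KANSL1, KANSL2, KANSL3, PHF20, OGT and KAT8, and the share of all genes marked in both was 46.4%. MCRS1 and HCFC1 had a gene-end summit in KO and none in WT, a class that holds 6.99% of all genes. None of the 8 showed the converse, which 3.51% of all genes did, and none lacked a summit in both lists, as 43.1% of all genes did. EMBOW-F had no gene-end summit at any of the 8, against 1.40% of all genes. The exact (Clopper-Pearson) 95% interval was 34.9 to 96.8% for the WT share of 75% and 63.1 to 100% for the KO share of 100%. These intervals cover counting error over 8 genes only, as if the genes were independent draws, which a chosen list is not. They hold no variation between libraries.

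**Figure D1:**
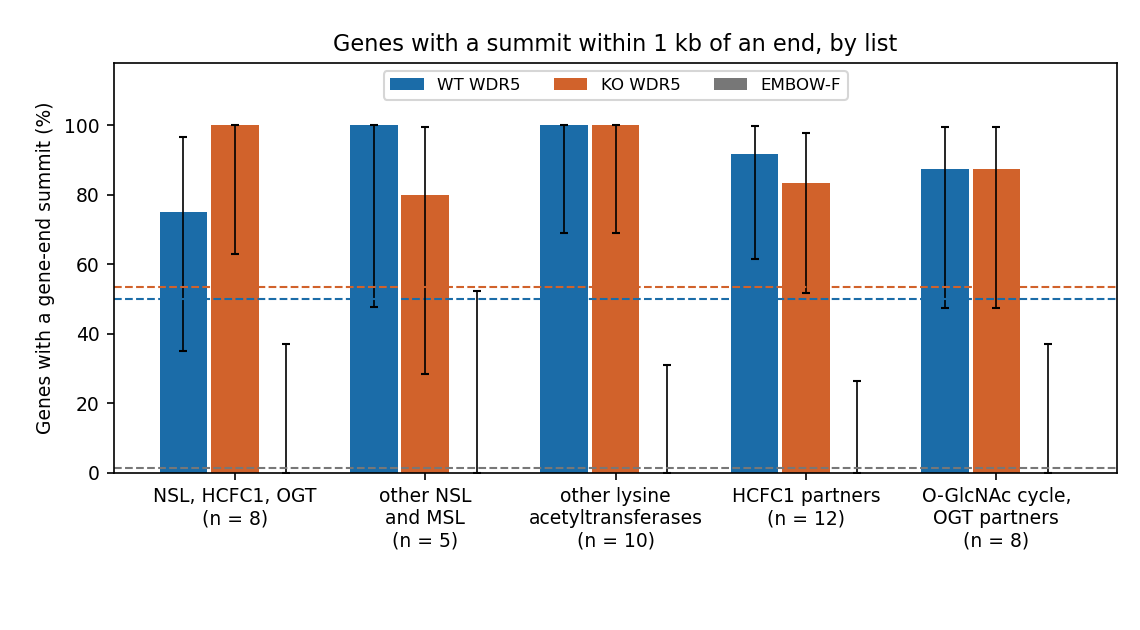
Share of genes (%, vertical axis) with a summit within 1 kb of an end in the WT WDR5, KO WDR5 and EMBOW-F lists, for the 8 genes and for 4 related gene lists; bars are shares, black lines are exact 95% intervals over genes, and dashed lines in the matching colours are the shares of all protein-coding genes. The 8 genes stand at 75% in WT and 100% in KO, and every EMBOW-F bar is at 0.

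The window was widened to 10 kb from either end to see what lay just outside it. All 8 genes then had a KO summit, against 65.0% of all genes. The WT count rose to 7, against 61.2% of all genes, since HCFC1 entered. MCRS1 remained the one gene with a KO summit and no WT summit, a class of 6.52% of all genes at this width, and none of the 8 had a WT summit without a KO summit (2.65% of all genes). EMBOW-F stayed at 0 of 8, against 4.79% of all genes. At the 1 kb limit, the farthest summit inside was a WT summit of PHF20, at 750 bp. The nearest outside were the WT summit of HCFC1 at 1060 bp and the KO summits at 1186 bp from HCFC1 and 1210 bp from KANSL1.

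**Figure D2:**
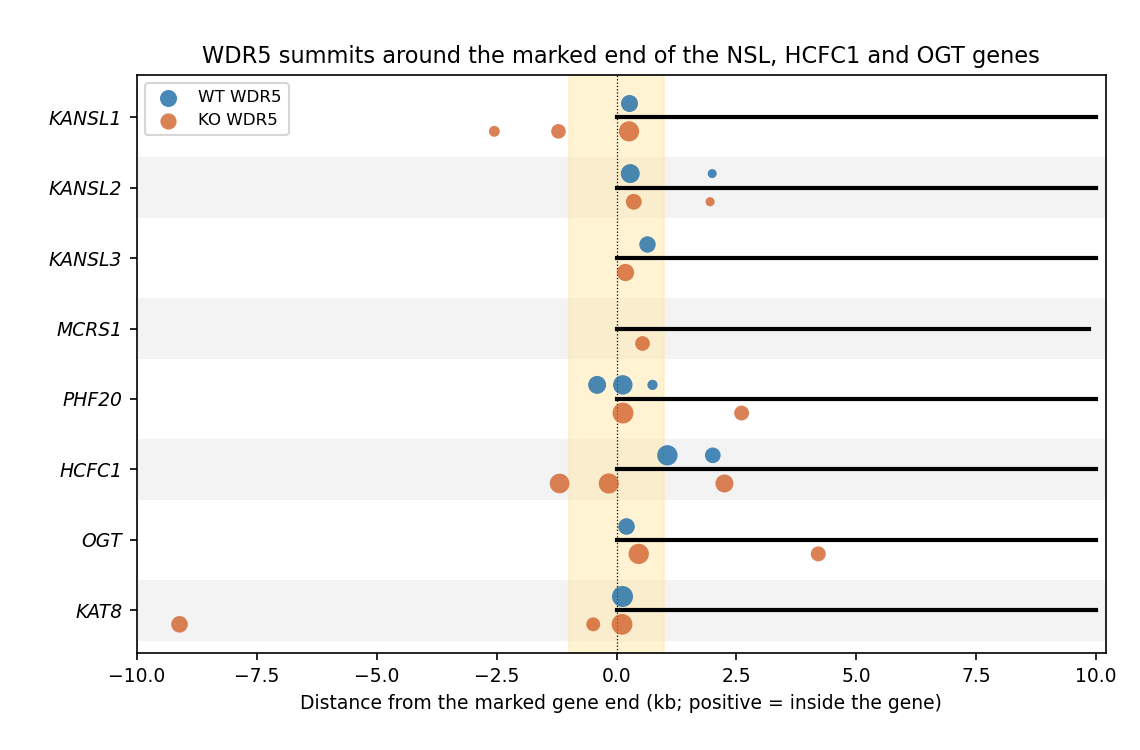
Position of WT (upper row of each gene) and KO (lower row) WDR5 summits as distance in kb from the gene end that carries the gene-end summit; larger points rank higher in their own list, black lines are the gene bodies and the yellow band is the 1 kb window. MCRS1 has no WT point, and the WT points of HCFC1 lie beyond the band, the nearer at 1060 bp. Summits at the far end of a gene or over 10 kb away are not drawn.

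The catalytic subunit gene, KAT8 on chromosome 16 (31117664 to 31131393), carried the highest-placed WT gene-end summit of the set. A summit is the single base at which a peak is highest. Its −log10 q is the authors' own score, larger for a lower false discovery rate, and it is read here only as a place within its list. The summit at 31117772 lay 108 bp inside the gene, with a −log10 q of 36.7 and rank 378 of 17660 WT summits, so that 2.14% of the list stood at or above it. The KO summit at 31117779 was 7 bp away, with a −log10 q of 27.4 and rank 1023 of 21055 (4.86%). A second KO summit lay at 31117179, outside the gene by 485 bp, at rank 13844, and it was 593 bp from the WT summit. These summits are not private to KAT8. BCKDK, which encodes the kinase of branched-chain ketoacid dehydrogenase, ends 24 bp before KAT8 begins, and its end lay 132 bp from the WT summit and 139 bp from the nearest KO summit. Another KO summit at 31108554 was 9110 bp from KAT8 and 168 bp inside the far end of BCKDK.

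KANSL1, the scaffold subunit that contacts both WDR5 and KAT8, spans 195452 bp on the minus strand of chromosome 17 (46029916 to 46225367). At its 5′ end, WT had a summit at 46225099 (−log10 q 7.79, rank 7271, 41.2% of the list at or above it). KO had one at 46225106, which was 7 bp away (−log10 q 18.8, rank 2388, 11.3%). The highest-placed summit of the gene in either genotype was elsewhere, over 32 kb inside the gene. In WT it lay at 46193137 with a −log10 q of 28.3 and rank 649 (3.67%), and in KO at 46192974 with a −log10 q of 27.8 and rank 999 (4.74%), 163 bp apart. RefSeq gives KANSL1 further start sites there, at 46192782 and 46194050, so a rule based on gene ends leaves out the place where WDR5 ranked highest at this gene. The antisense lncRNA gene KANSL1-AS1 begins 436 bp from the WT summit.

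The windows around these internal starts are printed because the summits lie in or beside them. Each is 250 bases before to 50 bases after a RefSeq start (GRCh38.p14), read 5′ to 3′ on the minus strand. In the first, at chr17:46192733-46193032, the first capitals are the 11 bases centred on the KO summit, which is base 59, and the second are an E-box, CACGTG, 46 bases before the start. In the next, at chr17:46194001-46194300, the capitals mark a match to the long form of the motif bound by ZNF143 and THAP11, the latter a DNA-binding partner of HCFC1. The WT summit lies in neither window, 355 bases upstream of the first start and 913 bases downstream of the other.
KANSL1 start 46192782: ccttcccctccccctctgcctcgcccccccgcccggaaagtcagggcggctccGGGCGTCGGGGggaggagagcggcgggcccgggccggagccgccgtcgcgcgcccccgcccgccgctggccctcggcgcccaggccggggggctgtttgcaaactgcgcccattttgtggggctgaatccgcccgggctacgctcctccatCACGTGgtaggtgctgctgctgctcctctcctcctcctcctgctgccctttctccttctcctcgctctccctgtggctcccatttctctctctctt
KANSL1 start 46194050: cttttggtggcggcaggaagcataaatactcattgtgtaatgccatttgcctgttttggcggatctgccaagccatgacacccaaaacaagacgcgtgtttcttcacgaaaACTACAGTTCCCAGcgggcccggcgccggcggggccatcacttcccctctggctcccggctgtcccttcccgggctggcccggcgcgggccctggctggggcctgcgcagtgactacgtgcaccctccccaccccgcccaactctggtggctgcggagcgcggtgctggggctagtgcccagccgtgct

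An E-box, searched as CACGTG (its own reverse complement), occurred in 7.26% of the 35116 windows of this length in the promoter table. The long ZNF143 and THAP11 motif was searched on both strands after the sequences had been read, and it occurred in 1.02% of windows. A shorter core that was planned, ACTACAA, overlaps it in part. It was in 2.77% of windows and in none of the 9 windows of the set. These matches describe the letters and were not tested for binding.

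KO had more summits than WT inside KANSL1. Over 10 kb from both ends there were 7 KO summits and 1 WT summit. Apart from the summit at 46192974, the KO summits were low in their list, with −log10 q between 2.84 and 5.34 and ranks between 12232 and 17783. Those at 46192129 and 46193862 lay on either side of the internal start at 46192782, and 4 others lay between 46100368 and 46149239, at least 43898 bp from any WT summit. Among the 3356 protein-coding genes of at least 100 kb, 10 (0.298%) had 7 or more KO summits in the same part of the gene and 5 had 7 or more WT summits, and the median was 0 in both lists. At least 1 WT summit was found in 20.6% of these genes. KANSL1 was singled out for this count after its values were seen. The KO list is also the longer, with 21055 summits against 17660 in WT. Cut to the WT length, it would lose the KO summits at 46116384 and 46149239, of ranks 17782 and 17783. Of the summits counted, only the KO summits at 46192974 and 46102449 and the WT summit had a −log10 q of 5 or more. The shares of long genes were not recounted at these limits. A further 2 KO summits, at 1210 and 2547 bp, lay outside its 5′ end.

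**Figure D3:**
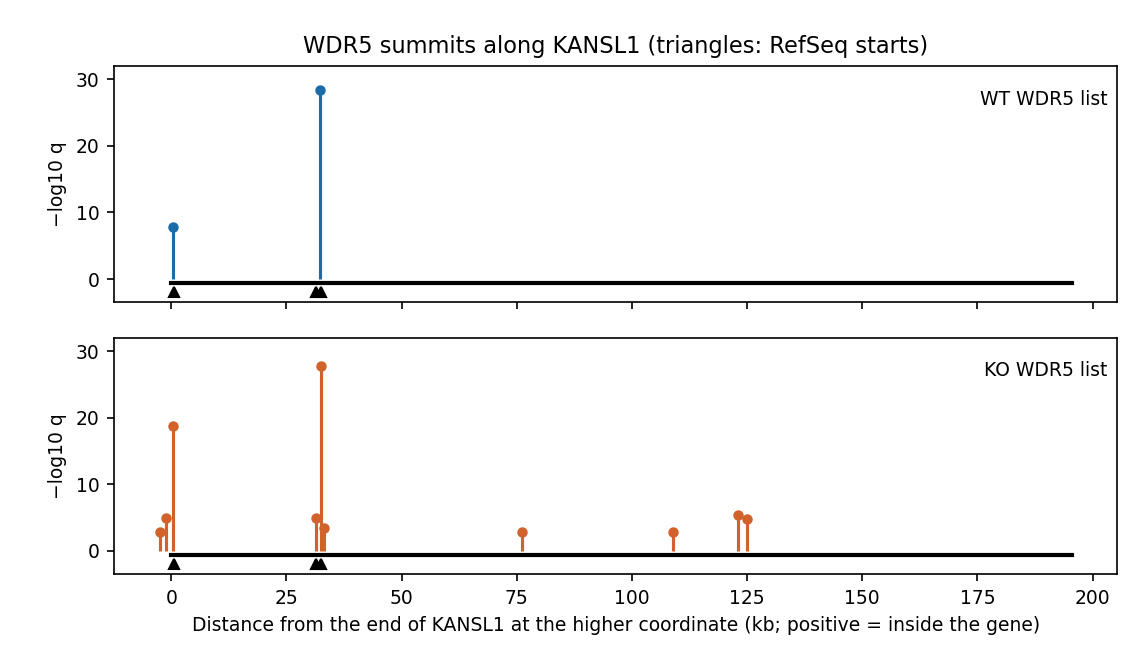
Summits along KANSL1 in the WT list (upper panel) and the KO list (lower panel); the horizontal axis is the distance in kb from the gene's 5′ end, the height is the −log10 q the peak caller gave within that list, and triangles mark RefSeq starts. Both genotypes have their tallest line near 32 kb, and KO has further low summits inside the gene. Heights are comparable within a panel only.

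KANSL2, whose product binds the face of WDR5 opposite to KANSL1, lies on the minus strand of chromosome 12 (48653211 to 48682238). WT had summits at 48681951 (−log10 q 11.9, rank 4130, 23.4% of its list) and 48680243 (2.09, rank 16713), which lay 287 and 1995 bp downstream of the start. KO had summits at 48681878 (6.15, rank 10812, 51.4%) and 48680287 (2.05, rank 19825), at 360 and 1951 bp. The pairs were 73 and 44 bp apart, so both genotypes had the same arrangement of a stronger and a weaker summit downstream of the start. Its promoter window holds CCAAT at 2 places (searched on both strands, in 34.6% of windows) and no E-box.

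KANSL3, a subunit that also binds microtubule ends in mitosis, lies on the minus strand of chromosome 2 (96580494 to 96638312). It had 1 summit in each genotype, WT at 96637680 (−log10 q 7.03, rank 8231, 46.6%) and KO at 96638143 (8.35, rank 8229, 39.1%). They were 463 bp apart, the widest spacing among the genes marked in both lists. RefSeq lists starts at 96638312 and 96637991. The KO summit lay 169 bp downstream of the former and 152 bp upstream of the latter, and the WT summit lay downstream of both, by 632 and 311 bp. The window of the inner start, chr2:96637942-96638241, contains the KO summit at base 99, and the capitals mark the 11 bases centred on it.
KANSL3 start 96637991: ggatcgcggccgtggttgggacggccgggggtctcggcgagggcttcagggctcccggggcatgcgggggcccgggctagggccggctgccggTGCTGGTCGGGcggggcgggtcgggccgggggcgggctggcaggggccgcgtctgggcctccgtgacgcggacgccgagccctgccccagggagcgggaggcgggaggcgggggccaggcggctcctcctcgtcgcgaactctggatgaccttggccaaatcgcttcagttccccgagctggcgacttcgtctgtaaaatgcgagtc

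The bases after the KANSL3 summit hold GGGCGG, the GC box, at 3 places beginning at bases 102, 107 and 123. The GC box was searched on both strands and is common, being found in 45.0% of all windows and in 6 of the 9 windows here. The outer window of KANSL3 holds an ETS motif, CCGGAAG, on the reverse strand, which 10.3% of windows contain.

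MCRS1 encodes a subunit with a forkhead-associated domain that also works in spindle assembly, and it was the one gene of the set with no WT summit within 10 kb. Its only KO summit was at 49567606 on chromosome 12 (gene 49558299 to 49568142, minus strand), 536 bp inside the 5′ end, with a −log10 q of 5.15 and rank 12660 (60.1% of the list). This was the lowest-placed best gene-end summit among the 8 in KO. The nearest WT summit to the gene was 20326 bp from an end, and the nearest to the KO summit was 29633 bp away, at 49537973. The RefSeq start in the promoter table, at 49566439, is 1167 bp downstream of the summit, and its window holds an E-box at 2 places.

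MCRS1 was also the one gene of the 8 in a list that the authors name as new WDR5 targets that depend on EMBOW. The name does not say in which genotype the targets were gained. At MCRS1 the WDR5 summit was called in KO, where EMBOW is knocked out, and not in WT. Of the transcripts in that list, 15 had an end within 1 kb of an end of MCRS1, all on its own strand, against 9.73% of all genes with at least 1 such transcript. The 5′ end nearest to the KO summit was that of ENST00000551625.5, at 144 bp. The authors chose this list on these samples, so it is not independent of the summits. With any overlap as the criterion, KANSL1 was matched too (11.5% of all genes), but its 4 transcripts are on the plus strand at KANSL1-AS1. Their nearest 5′ end to a KO summit was 230 bp from the one at 46193862, which has rank 12831. HCFC1, the other gene marked in KO and not in WT, was not in the authors' list by either criterion.

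PHF20, a subunit that reads methylated lysines, lies on the plus strand of chromosome 20 (35772015 to 35950370) and had the highest-placed KO gene-end summit of the set. That summit, at 35772150, was 135 bp downstream of the start, with a −log10 q of 29.5 and rank 867 (4.12%). WT had 3 gene-end summits, at 35771611 (9.54, rank 5804), 35772146 (13.9, rank 3194, 18.1%) and 35772765 (2.72, rank 15644). The middle one was 4 bp from the KO summit, and the others were 539 and 615 bp from it. KO had a further summit outside the 1 kb window, at 35774623, 2608 bp downstream of the start (5.22, rank 12340). Among genes with a WT gene-end summit, 2.24% had 3 or more. The window before the start, chr20:35771765-35772064 on the plus strand, holds an E-box, shown in capitals, 8 bases upstream of the start.
PHF20 start 35772015: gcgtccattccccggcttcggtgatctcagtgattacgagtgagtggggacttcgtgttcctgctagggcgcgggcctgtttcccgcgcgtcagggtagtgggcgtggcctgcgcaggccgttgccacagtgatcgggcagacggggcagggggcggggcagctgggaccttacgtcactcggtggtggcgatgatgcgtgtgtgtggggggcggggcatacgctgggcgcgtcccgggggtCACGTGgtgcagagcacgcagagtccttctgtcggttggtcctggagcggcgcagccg

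Beyond the other end of PHF20, WT had summits at 35954166 and 35954902 and KO at 35954024 and 35954879. They lay between 3654 and 4532 bp from PHF20 and between 220 and 516 bp from the start coordinate of CNBD2. The KO summit at 35954024 ranked 904.

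HCFC1 is on the X chromosome (153947557 to 153971818), and WDR5 was called near its end at the higher coordinate in both genotypes, at different positions. In WT, summits lay inside the gene at 153970758 (−log10 q 19.2, rank 1661, 9.41%) and 153969811 (6.26, rank 9310). In KO, summits lay outside the gene at 153971979 (18.2, rank 2517 of 21055) and 153973004 (15.5, rank 3483), and inside at 153969568 (9.84, rank 6816) and, near the other end, 153954146 (4.09, rank 14621). The WT summit of rank 1661 was 1190 bp from the nearest KO summit, while 153969811 and 153969568 were 243 bp apart. Presence in KO and absence in WT at the 1 kb window thus rests for HCFC1 on a WT summit 1060 bp from the end that ranked among the highest 10% of its list. The next gene, TMEM187, begins 936 bp beyond HCFC1. The KO summit at 153971979 was 775 bp from it, and that at 153973004 lay 250 bp inside it. With 1 library per genotype, these positions do not show that WDR5 moved.

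OGT, also on the X chromosome (71533104 to 71575892, plus strand), had a WT summit at 71533305, 201 bp downstream of its start, with a −log10 q of 7.32 and rank 7876 (44.6%). KO had one at 71533567, 463 bp downstream, with a −log10 q of 19.9 and rank 2084 (9.90%), and another at 71537310 of rank 12202. The first KO summit was 262 bp from the WT summit. The window of OGT holds a GC box and no E-box.

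Over the 6 genes marked in both lists, the nearest WT and KO gene-end summits were 4, 7, 7, 73, 262 and 463 bp apart, with a median of 40 bp. Over all 9307 genes marked in both, the median was 55 bp, and 95.1% were within 500 bp. Spacings of 10 bp or less were found at 3 of the 6 (KANSL1, PHF20 and KAT8) and at 14.6% of all such genes. The limit of 10 bp was not among the planned distances and lies just above the spacings of these 3 genes. The contrast is therefore a description only. The median place of the best gene-end summit in the WT list was 32.3% for the 6 genes and 31.6% for all genes marked in both. In the KO list these medians were 10.6% and 26.6%. The places come from lists of different length and do not measure a change between genotypes. Gene-end summits lay downstream of the nearest RefSeq start at KANSL2, PHF20 (except the WT summit at 35771611) and OGT. At KANSL1 they lay upstream of an inner start in both genotypes, but 268 bp (WT) and 261 bp (KO) inside the gene's 5′ end. At KANSL3 they lay downstream of the inner start in WT and upstream of it in KO, where the summit was 169 bp downstream of the outer start. At MCRS1 the KO summit lay 1167 bp upstream of the start in the promoter table, but 536 bp inside the 5′ end. That start is thus outside the 1 kb class that follows. Over all starts with a summit within 1 kb, the nearest summit was downstream at 73.9% in WT and 73.7% in KO. Starts for HCFC1 and KAT8 were not used here.

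**Figure D4:**
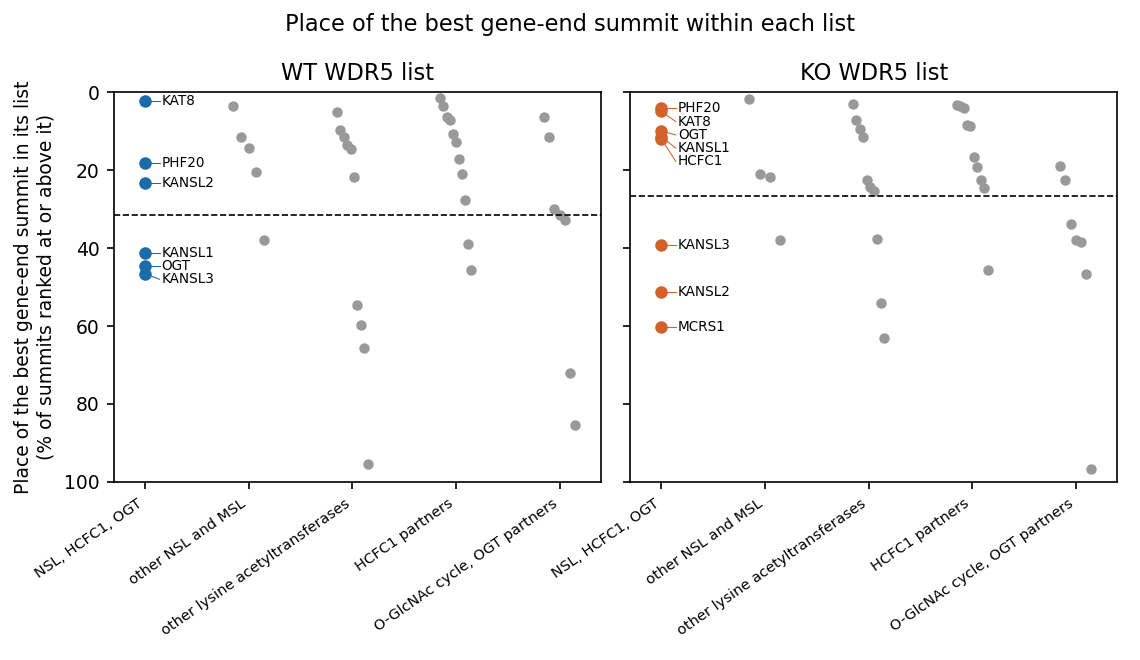
Place of each gene's best gene-end summit in its own list (vertical axis, % of the list's summits ranked at or above it, with the top of the list at the top) for the 8 genes (coloured, named) and the 4 related lists (grey), in WT (left) and KO (right); dashed lines are medians over all genes marked in both lists. KAT8 is the highest of the named genes in WT at 2.14%, and in KO PHF20 (4.12%), KAT8, OGT, KANSL1 and HCFC1 stand above the dashed line, and no other named gene does.

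Related genes were set beside the 8 from 4 lists. Of 35 such genes, 33 were marked in WT and 31 in KO, against 50.0% and 53.4% of all genes. None was marked in KO alone and 2 in WT alone, against 6.99% and 3.51% of all genes. The same shares apply to the counts of each list below. Among the other NSL and MSL genes (MSL is the second complex that contains KAT8), all 5 were marked in WT and 4 in KO. MSL2, the ubiquitin ligase subunit, ranked highest in both, at 609 and 382. MSL3, its chromodomain subunit, had a WT summit at rank 6705, and the nearest KO summit lay 1015846 bp away. The same list holds WDR5 itself, at rank 3592 in WT and 8004 in KO.

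The other lysine acetyltransferases were marked at 10 of 10 genes in both genotypes, with KAT5 highest in WT (rank 868) and KAT7 highest in KO (rank 632). Of the HCFC1 partners, 11 of 12 were marked in WT and 10 in KO, led in both by SETD1A, an H3K4 methyltransferase that HCFC1 binds, at ranks 273 and 674. SIN3A, a corepressor scaffold, was marked in WT at rank 1101 and had its nearest KO summit 1052 bp from an end. CREBZF was marked in neither list. Genes of the O-GlcNAc cycle and OGT partners were marked at 7 of 8 in both, led by UAP1 in WT (rank 1101) and GNPNAT1 in KO (rank 3970), enzymes of the route to the sugar donor. TET3, a partner of OGT, lay just outside the window in both, at 1063 and 1084 bp. EMBOW-F summits within 10 kb were found at none of these 35 genes, against 4.79% of all genes.

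EMBOW-F summits lay over 10 kb from all 8 genes, as they did from most protein-coding genes. The nearest was 71849 bp from HCFC1, at 153875708 on the X chromosome, with a −log10 q of 2.70 and rank 58561 of 93143. The farthest was 5736779 bp from KANSL1. Across the 8 genes the median distance was 1746335 bp, and over all protein-coding genes it was 1546767 bp. Of all genes, 25% were nearer than 385513 bp and 25% farther than 4015438 bp. At the median distance of the 8, 53.0% of genes had a summit as near or nearer. At the distance of HCFC1 11.3% did, and at that of KANSL1 82.8%. The distances follow a list that is very uneven between chromosomes. Chromosome 17, which holds KANSL1, had 78 EMBOW-F summits, chromosome 20, with PHF20, had 127, and the X chromosome had 5707. Read depth is unknown for all 3 lists, so a gene without a summit may lie below what each library could call.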

How the data were processed

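ChIP-seq of WDR5 (WT and KO) and of tagged EMBOW was read from 3 deposited summit lists. The submitters' processing notes name MACS2 2.2.7.1, Bowtie2 2.4.5, hg38 and deepTools 3.5.1, without roles or settings, so the control and any pooling are unknown here. The authors' values are −log10 q scores per summit, a unit inferred from the deposited values, whose minimum in each list matches a q just under 0.05. They were used only within a list, with tied scores given their lowest rank. The authors' deposited target list holds 18665 transcripts, with no other value used than its coordinates, and 1 line with a damaged chromosome name was repaired. The EMBOW-F list was matched to the FLAG ChIP, the only ChIP of tagged EMBOW in the labels.

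Gene ends and promoters came from RefSeq (GRCh38.p14). Summits within 1 kb of either end were counted, and all 20037 protein-coding genes served as background. Promoter windows matched 6 of the 8 genes. The search code was tested on simulated data, where 200 of 200 planted genes were recovered. Software was scipy 1.17.1, numpy 2.4.6, matplotlib 3.10.9, pandas 2.3.3 and Python 3.11.15. The named genes are the 8, genes sharing their gene-end summits, and, in 4 related lists, the highest-ranked gene per genotype and those marked in 1 genotype only; CREBZF, TET3 and WDR5, and genes named as neighbours of other summits, were added after their values were seen. The genes and lists were chosen with earlier results of these data known. Alternatives were other windows, a q of 1e-05, WT and KO lists of equal length, 5′ ends only, partner distances, tie ranks and target matching.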

Additional observations from a re-analysis of the deposited data

How the results depend on the processing

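No paired analysis was possible because each group has 1 library. With a window of 500 bp, 5 of the 8 genes were marked in WT and 7 in KO (41.6% and 44.8% of all genes), and with 2 kb 7 and 8 (53.4% and 57.0%). With a q of 1e-05 or less they were 6 and 8 (39.7% and 44.5%), and with lists of equal length 6 and 8 (50.0% and 51.0%). With 5′ ends only, 5 and 6 of the 6 genes with a known strand were marked, with no share of all genes to set beside them. EMBOW-F stayed at 0 throughout. Its shares of all genes were 0.958% with 500 bp, 2.25% with 2 kb and 0.190% with the stricter q. The setting of equal length did not shorten the EMBOW-F list, whose share stayed at 1.40%, so it is no check of EMBOW-F. The count marked in KO and not in WT fell from 2 to 1 (MCRS1) with a window of 2 kb (6.58% of all genes), with 10 kb, and with 5′ ends only, which leaves out HCFC1. It stayed at 2 with 500 bp (9.05%), but the genes were then KANSL3 and HCFC1, since the MCRS1 summit at 536 bp and the WT summit of KANSL3 at 632 bp drop out. With a q of 1e-05 or less (9.55%) and with lists of equal length (5.79%) it was 2, MCRS1 and HCFC1. In the related lists, genes marked in KO and not in WT went from 0 to 2 with 500 bp and to 2 with the stricter q. The converse went from 2 to 4 with 500 bp (5.81% of all genes) and to 1 with 2 kb (2.93%) and with 10 kb (2.65%). With lists of equal length it was 3 (4.79%). Members with a listed transcript went from 1 to 2 with any overlap, and genes with the ZNF143 and THAP11 motif from 0 to 1 with its longer form. The weakest WT summit of PHF20 has rank 15755 instead of 15644 when ties take their highest rank. The other 69 of 80 values kept within 1.5 times of their count, or within the counting interval of their rank.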

Other observations

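The 5 protein-coding genes whose best gene-end summits stood nearest in the WT and KO lists to the median of the 6 genes marked in both (32.3% and 10.6%) were NHLRC3, PROSER1, NCOA6, LTBP1 and DCAF17. Likeness was the sum of the absolute differences in place over 2 libraries, which ran from 0.410 to 1.24 percentage points. NHLRC3 and PROSER1 had the same places in both lists, at 32.1% and 10.4%. Many genes have similar places, so this is a description of rank only.

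CG dinucleotides were counted in the 9 promoter windows of the 6 genes that had one. The windows held between 12 (MCRS1) and 38 (the outer start of KANSL3) CG pairs, against a median of 14 over all 35116 windows. In the set, 8 of the 9 held 22 or more, as did 37.7% of all windows. The cutoff of 22 is the lowest count in the set after that of MCRS1. The count of 8 follows from that choice, so it is no evidence of enrichment. Their GC content ran from 57.7% (OGT) to 75.3% (the inner start of KANSL3), with a median of 58.7% over all windows. No window of the set held a TATA box (TATAAA, 11.5% of all windows), the NRF1 motif (1.24%) or the YY1 motif AAGATGGCG (1.75%), each searched on both strands. Windows of the same gene overlap in origin and are not independent.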
